A study of Caenorhabditis elegans with 9 samples.

Results

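The 10 genes described here carry the dauer TGF-beta and steroid hormone signals of Caenorhabditis elegans, and they were chosen by name from 46904 genes. They are daf-7, daf-1, daf-4, daf-8, daf-14, daf-3, daf-5, daf-9, daf-12 and din-1, and each was found in all 3 deposited tables. RNA was recovered with anti-GFP antibodies from whole hermaphrodite dauer larvae, the arrested larval stage, which had been fixed with formaldehyde. Dauers were collected at 96 hours and 25 °C, on day 2 of dauer, and the purified RNA was selected for polyadenylated molecules. The question was which transcripts come down with HZL-1, and whether loss of AMPK, a kinase that senses cellular energy, alters their recovery.

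Every genotype contained daf-2, a mutation in the insulin/IGF receptor gene. In the intestinal set, 3 libraries labelled aak(0) came from daf-2; aak(0); hzl-1 animals, and 3 labelled daf-2 from daf-2; hzl-1 animals. Both groups carried Ex(nhx-2p::hzl-1::GFP), in which the promoter of the intestinal gene nhx-2 drives the tagged protein. The aak(0) genotype stands for the AMPK mutant of the study. A single control library came from daf-2; aak(0) animals with Ex(nhx-2p::GFP), and its label names no hzl-1 mutation, so the tagged protein is not the sole difference from the HZL-1 groups. The endogenous set held 1 library labelled aak(0) and 1 labelled daf-2, both with hzl-1 mutant and carrying Ex(hzl-1p::hzl-1::GFP), the tagged protein under its own promoter. Ex marks an extrachromosomal array, which is not kept by every cell. Separate cultures are not stated for the libraries of a group. Each p-value therefore sets a difference only against the spread among these samples, which may be technical.

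DAF-7 is a TGF-beta ligand made by sensory neurons in favourable conditions, and it binds the receptor kinases DAF-1 and DAF-4. The receptors act through the Smads DAF-8 and DAF-14, which oppose the Smad DAF-3 and its Ski-family partner DAF-5. In growing larvae the cytochrome P450 DAF-9 makes dafachronic acids, the steroid ligands of the nuclear receptor DAF-12, and DAF-12 without its ligand acts with the corepressor DIN-1 to drive dauer formation.

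Gene reads per HZL-1 library ranged from 7151604 to 17397251 in the intestinal set, and were 24035823 and 58132094 in the endogenous libraries labelled aak(0) and daf-2. For the GFP library the depth is unknown. Ribosomal RNA took 76.3% to 89.8% of the intestinal gene reads. Between 3439 and 18666 genes were above 0 FPKM (fragments per length of transcript and depth of library) in the 7 intestinal libraries, with the fewest in aak(0) 1, daf-2 1 and daf-2 3. The members held 2547 to 9373 reads per intestinal HZL-1 library. No input RNA was analysed here, so how abundant a transcript was and how well it was recovered cannot be told apart. In such bulk samples fewer cells of a type and less RNA per cell cannot be told apart.

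Some libraries went against their labels. aak-2, the gene of a catalytic AMPK subunit, had 92248 reads (3838 CPM, reads scaled to the same total of gene reads) in the endogenous library labelled aak(0) and 3937 reads (67.7 CPM) in the one labelled daf-2, a ratio of 56.7 (exact 95% binomial interval 54.9 to 58.5). hzl-1, listed as C44H9.4, had 11527 reads in the former and 0 in the latter, where 3 reads would be 0.0516 CPM, although both labels name an hzl-1 transgene. In the intestinal set aak-2 was at 0, 2.11 and 3.36 FPKM in aak(0) 1 to 3, at 6.13, 5.31 and 7.90 in daf-2 1 to 3, and at 8.32 FPKM in the library labelled GFP, which is also labelled aak(0). aak-1, the gene of the other catalytic subunit, was at 0 to 2.66 FPKM in the aak(0) libraries, 0 to 6.41 in those of daf-2 and 4.43 in the GFP library. hzl-1 was at 6.25, 18.67 and 17.53 FPKM in the aak(0) libraries, 2.01, 11.44 and 10.38 in those of daf-2 and 3.04 in the GFP library, so daf-2 1 lay below the library without an HZL-1 transgene. daf-2 transcript was present in every library, between 7.27 and 22.6 FPKM. The sources used here do not say which part of these genes the mutations remove, so their transcripts check the labels only in part. Libraries are called by their labels throughout.

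The receptor gene daf-12 and the corepressor gene din-1 were the most abundant members per transcript length, and the hormone synthesis gene daf-9 the least. The mean over the 7 intestinal libraries was 44.8 FPKM for din-1 and 33.9 FPKM for daf-12. din-1 ranked first and daf-12 second in 6 of the 7 libraries, and the order was turned in daf-2 3. Together they made up 57.1% to 76.0% of the summed FPKM of the 10 members. Below them came daf-5 (9.4 FPKM), daf-14 (7.33), daf-3 (5.04), daf-4 (3.71), daf-7 (2.92), daf-8 (1.92), daf-1 (1.47) and daf-9 (0.204). Each neighbouring pair in this order overlapped in FPKM across the 7 libraries. Only daf-3, daf-5, daf-12 and din-1 were above 0 FPKM in all 7 libraries, as were 1778 of the 9649 genes tested (18.4%). daf-14 missed this only by its 0 FPKM in daf-2 1, which stood beside 178 reads.

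**Figure D1:**
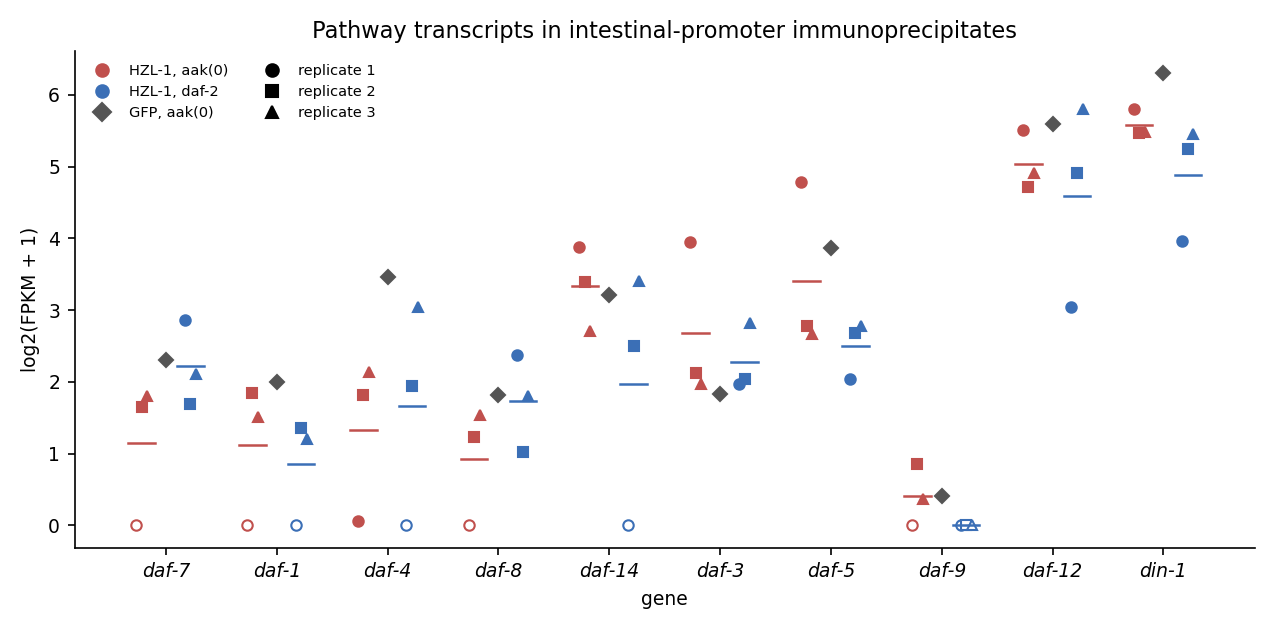
FPKM of the 10 genes in the 7 intestinal-promoter libraries on a log2(FPKM + 1) axis, with 1 point per library, open symbols for a value of 0 and short bars for the means of the log2 values in the aak(0) and daf-2 groups. din-1 and daf-12 sit highest, daf-9 lies at or near 0, and the aak(0) and daf-2 points of 9 of the 10 genes overlap.

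The ligand gene daf-7 (chromosome III:811828-813773, build WBcel235) was listed at 0, 2.13 and 2.48 FPKM in aak(0) 1 to 3, from 0, 80 and 113 reads. It was at 6.28, 2.24 and 3.32 FPKM in daf-2 1 to 3, from 201, 87 and 140 reads, and at 3.96 FPKM in the GFP library. The highest and the lowest of these values belonged to the libraries numbered 1, the other 4 lay between 2.13 and 3.32 FPKM, and the groups overlapped. The difference of aak(0) minus daf-2 was -1.08 ± 0.81 (SE) on the log2(FPKM + 1) scale, with a 95% interval of -3.03 to 0.88 (limma adjusted p = 0.717). Of 12 neuron markers, 5 were at 0 in aak(0) 1, 6 in daf-2 1 and 3 in daf-2 3, against 0 in the other intestinal libraries. Their summed level was 108 to 276 FPKM in the aak(0) libraries, 98.3 to 211 in those of daf-2 and 148 in the GFP library, and its part in the daf-7 values was not tested.

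The type I receptor gene daf-1 (IV:132416-138076) was at 0, 2.60 and 1.85 FPKM in the aak(0) libraries, at 0, 1.56 and 1.3 in those of daf-2 and at 3.01 in the GFP library. Its reads were 211, 161 and 118 in aak(0) and 0, 100 and 81 for daf-2, so the FPKM of 0 in aak(0) 1 stood beside 211 reads. In that library 8.34% of genes with more than 100 reads were listed at 0 FPKM, as were 11.2% in daf-2 1 and 11.4% in daf-2 3. By CPM the aak(0) libraries were at 29.5, 10.1 and 7.04 and those of daf-2 at 0, 5.75 and 6.91, without overlap. Of 11004 genes with a mean of at least 1 CPM, 8.1% had all 3 aak(0) libraries above all 3 of daf-2 by CPM and 0.763% had them all below. Among the 9 members in that table, daf-1 alone was in the former group and 0 were in the latter. The limma difference of daf-1 was 0.27 ± 0.75 (SE; adjusted p = 0.933), and edgeR's quasi-likelihood test on the reads gave an adjusted p of 1.00.

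The type II receptor gene daf-4 (III:5625014-5632322), which also serves the body-size ligand DBL-1, was at 0.04, 2.52 and 3.38 FPKM in the aak(0) libraries, at 0, 2.84 and 7.25 in those of daf-2 and at 9.96 in the GFP library. Both libraries numbered 1 were at or near 0, with 1 read in aak(0) 1 and 0 in daf-2 1. The remaining HZL-1 libraries held 176 to 348 reads, and the groups overlapped. The difference was -0.33 ± 1.07 (SE; limma adjusted p = 0.944). In aak(0) 1 daf-4 thus had 1 read where its partner receptor daf-1 had 211.

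Of the receptor-regulated Smads, daf-8 (I:8584081-8587505) was at 0, 1.35 and 1.91 FPKM in the aak(0) libraries, 4.18, 1.03 and 2.48 in those of daf-2 and 2.52 in the GFP library. As with daf-7, aak(0) 1 was lowest with 0 reads and daf-2 1 highest with 172 reads, and the groups overlapped. The difference was -0.81 ± 0.76 (SE; limma adjusted p = 0.737). daf-14 (IV:10250646-10255844), which overlaps the coding gene F01G10.9, was at 13.8, 9.54 and 5.53 FPKM in the aak(0) libraries, 0, 4.63 and 9.61 in those of daf-2 and 8.27 in the GFP library. The 0 in daf-2 1 stood beside 178 reads, and by CPM daf-14 was at 24.6, 17.8 and 10.4 in aak(0) and 13.8, 8.05 and 15.2 in daf-2. The groups overlapped on both scales, with a limma difference of 1.36 ± 1.00 (SE; adjusted p = 0.717).

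daf-3 (X:817927-825475), the Smad that drives dauer formation when the ligand signal is low, was at 14.4, 3.35 and 2.90 FPKM in aak(0). It was at 2.90, 3.11 and 6.07 FPKM in daf-2 and at 2.54 in the GFP library, so that a single aak(0) library stood high and the groups overlapped. The difference was 0.40 ± 0.78 (SE; limma adjusted p = 0.896). Its partner daf-5 (II:14033233-14037721) was at 26.6, 5.86 and 5.34 FPKM in the aak(0) libraries, 3.10, 5.44 and 5.89 in those of daf-2 and 13.5 in the GFP library. Here too aak(0) 1 was highest, 646 reads against 349 and 351 in the deeper aak(0) libraries, and the groups overlapped. The difference was 0.91 ± 0.76 (SE; limma adjusted p = 0.719).

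daf-9 (X:6196927-6200818), whose product makes the hormone, was at 0, 0.81 and 0.29 FPKM in the aak(0) libraries, at 0 in all 3 libraries of daf-2 and at 0.33 in the GFP library. The reads were 0, 36 and 26 in aak(0) and 0 in every library of daf-2, where 3 reads would be 0.232, 0.172 and 0.256 CPM. With a mean of 0.204 FPKM it fell below the minimum of 1 FPKM for the limma test, and its groups overlapped at 0. DESeq2 on the reads gave it an unadjusted p of 0.0508 and an adjusted p of 0.991. daf-9 is known from the XXX cells, a neuroendocrine pair in the head, besides hypodermis and spermatheca. Of 5 XXX cell markers, all were at 0 in aak(0) 1 and daf-2 1, and 2 to 4 in the other intestinal libraries. Their sum was 0, 7.21 and 6.32 FPKM in the aak(0) libraries, 0, 2.30 and 2.84 in those of daf-2 and 8.95 in the GFP library, most of it eak-7, and eak-3 was at 0 throughout. The part of these cells in the daf-9 values was not tested.

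daf-12 (X:10644409-10666874), which overlaps the coding gene F11A1.2, was at 44.4, 25.2 and 29.1 FPKM in the aak(0) libraries, 7.28, 29.0 and 54.8 in those of daf-2 and 47.4 in the GFP library. daf-2 1 was lowest and daf-2 3 highest of all 7 libraries, so the daf-2 group spanned the aak(0) group. The group means were 32.9 ± 10.1 FPKM (SD, n = 3) in aak(0) and 30.4 ± 23.8 (SD, n = 3) in daf-2. The difference was 0.46 ± 0.78 (SE; limma adjusted p = 0.878).

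din-1 (II:11614636-11633609) was at 55.0, 43.1 and 43.5 FPKM in the aak(0) libraries, 14.6, 36.9 and 42.9 in those of daf-2 and 77.8 in the GFP library. All 3 aak(0) libraries lay above all 3 of daf-2, by a margin of 43.12 against 42.91 FPKM at the boundary. That held for 10% of the 9649 genes tested, and the reverse order for 0.746%. By CPM the groups of din-1 overlapped. The means were 47.2 ± 6.76 FPKM (SD, n = 3) and 31.5 ± 14.9 (SD, n = 3), with a log2 difference of 0.69 ± 0.54 (SE), a 95% interval of -0.62 to 2.01 and a limma adjusted p of 0.717. It was the single member whose FPKM groups did not overlap, 1 of 9 tested, and 0 of 9 showed the reverse order.

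For aak(0) against daf-2, limma called 0 of the 9 members tested, and across the table it called 0.0104% of genes. At an unadjusted p under 0.05 it marked 0 of 9 members and 4.35% of all genes. edgeR and DESeq2, run on the reads of the 6 HZL-1 libraries, also called 0 members, against 0.0214% and 0.0218% of genes, and marked 0 at an unadjusted p under 0.05, against 0.654% and 3.33% of genes. The members' median log2 difference was 0.40 and that of all tested genes 0.59, with 6 of 9 members higher in aak(0). The 95% intervals were wide, reaching from -1.04 to 3.77 for daf-14 and from -1.43 to 2.34 for daf-12.

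**Figure D2:**
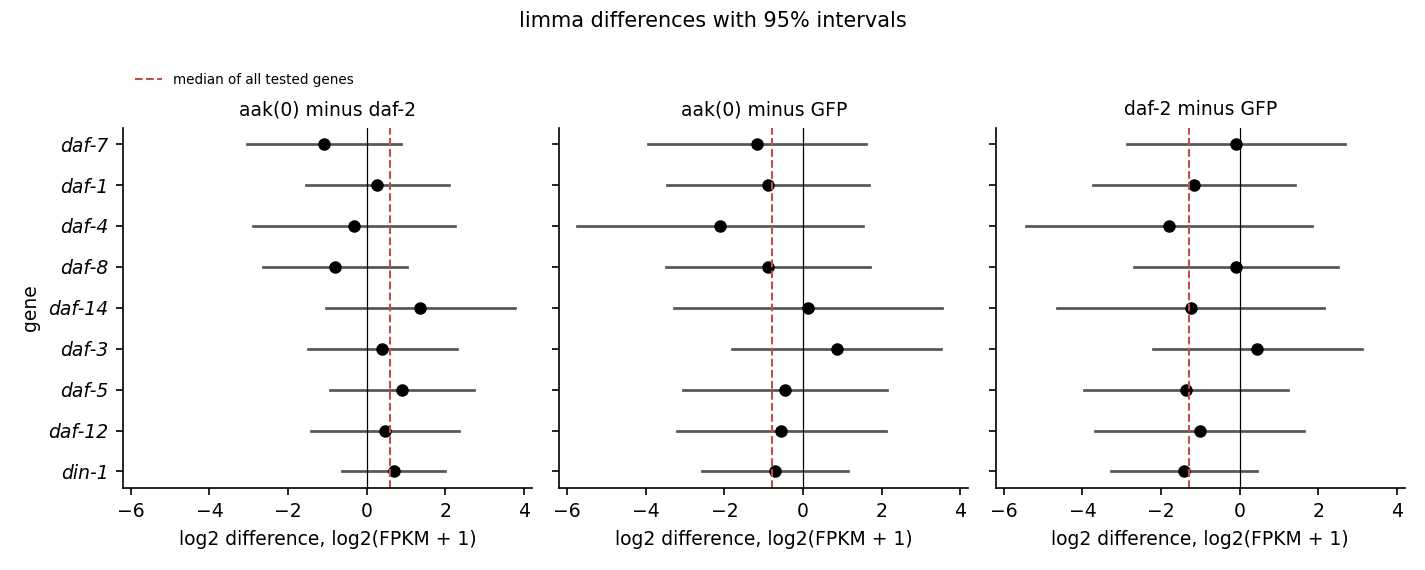
Differences in log2(FPKM + 1) of the 9 genes tested in the 3 intestinal comparisons, as points with bars for the 95% interval from limma. Each interval crosses 0, and the points lie mostly below 0 in both comparisons with GFP.

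The authors' deposited table gives daf-2 over aak(0), with larger fitted sizes for several members. There 3 of the 10 had an unadjusted p under 0.05, beside 13.3% of all genes. For daf-14, daf-3, daf-5, daf-12 and din-1 the authors' deposited table gave -0.31, -1.32, -2.42, -2.13 and -0.51. Between the libraries numbered 1 alone, the log2 normalized reads of these genes differed by -0.31, -1.31, -2.42, -2.13 and -0.51. Between those numbered 2 and 3, daf-3, daf-5, daf-12 and din-1 differed in the opposite direction. The deposited sizes of these genes thus followed the libraries numbered 1. In the authors' deposited table daf-7 had a log2 fold change of 9.77 ± 4.03 (SE; p = 0.0152) and daf-8 one of 9.54 (p = 0.0181). For daf-1 the authors' deposited table gave -10.49 (p = 0.00931). A second column of the authors' deposited table, called unshrunken, gave smaller log2 sizes of 3.47, 3.15 and -3.05 for daf-7, daf-8 and daf-1, which shared an adjusted p of 0.334 in the authors' deposited table. For daf-4 the authors' deposited table gave -2.77 ± 4.27 (SE; p = 0.517), a direction opposite to the limma difference, and -0.033 in the unshrunken column. Its log2 normalized reads differed by -1.88 between the libraries numbered 1, where aak(0) 1 held 1 read and daf-2 1 held 0. Between those numbered 2 and 3 they differed by 0.78 and 1.00. In the deposited normalized reads, daf-2 minus aak(0) on a log2(reads + 0.5) scale was 8.75 between the libraries numbered 1, 0.96 between those numbered 2 and 0.70 between those numbered 3 for daf-7. For daf-8 these were 8.53, 0.49 and 0.44, and for daf-1 -9.15, 0.16 and -0.15. The 3 large sizes thus stood beside a single library at 0 reads in each case, aak(0) 1 for daf-7 and daf-8 and daf-2 1 for daf-1.

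The comparisons with GFP rest on 1 control library, which both share, and limma assumes that it varies like the replicated groups. In aak(0) minus GFP 0 of 9 members passed the threshold, against 1.07% of all genes, and 0 of 9 at an unadjusted p under 0.05, against 1.94%. In daf-2 minus GFP 0 of 9 members passed, also against 1.07% of all genes, and 0 of 9 at an unadjusted p under 0.05, against 7.54%. daf-4 lay farthest below GFP, by -2.12 ± 1.51 (SE; limma adjusted p = 0.960) in aak(0) and -1.79 ± 1.51 (SE; limma adjusted p = 0.681) in daf-2. For din-1 the differences were -0.72 ± 0.77 and -1.41 ± 0.77 (SE; limma adjusted p = 0.960 and 0.599). The members' medians were -0.72 and -1.15, beside -0.79 and -1.28 over all tested genes.

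daf-3 was the single member above GFP in all 6 HZL-1 libraries, a pattern noted after its values were seen. Its log2(FPKM + 1) exceeded that of GFP by 2.12, 0.30 and 0.14 in aak(0) 1 to 3 and by 0.14, 0.22 and 1.00 in daf-2 1 to 3. The medians over all tested genes were -1.94, -0.35 and -0.35 in aak(0) and -1.41, -1.22 and -1.35 in daf-2. This order held for 0.197% of the genes tested, and for 1.01% of the 1778 genes above 0 in all 7 libraries. The reverse order, all 6 HZL-1 libraries below GFP, held for daf-1, daf-4 and din-1 (3 of 9 members) and for 35.0% of genes. For daf-1 it includes the 0 FPKM in aak(0) 1, which stood beside 211 reads. The group differences of daf-3 from GFP were 0.85 ± 1.10 (SE; limma adjusted p = 0.960) in aak(0) and 0.45 ± 1.10 (SE; limma adjusted p = 0.871) in daf-2. With 1 GFP library, its own spread is unknown.

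In the endogenous set, which has 1 library per label and therefore no test, 3 members were at least 2-fold higher in the library labelled aak(0) and 0 were at least 2-fold lower. Those sizes are on a log2(CPM + 1) scale, on which 59.2% of 18987 genes were at least 2-fold higher and 15.1% at least 2-fold lower. The members' median difference was -0.19 and that of all genes 1.92, which became 0.17 over the 6724 genes with a mean of at least 10 CPM. The make-up of these libraries differed. The gene argk-1 took 37.3% of gene reads in the library labelled aak(0) and 2 reads in the other. Ribosomal RNA took 29.96% and 70.4% of gene reads in the libraries labelled aak(0) and daf-2. Reads in no annotated feature were 48.6% and 4.11% of all reads counted, and 19889 and 10907 genes had reads, in the same order. The part of these in the differences below, among them genes with reads in 1 library only, was not tested. With ribosomal genes left out of the scaling, 1 member was at least 2-fold higher and 6 at least 2-fold lower, beside 51.6% and 29.9% of all genes, and the medians were -1.42 for the members and 1.45 for all genes. With argk-1 left out as well the counts were 3 and 0, beside 59.7% and 16.8%. Directions below therefore hold for CPM over all gene reads, and each ratio carries an exact 95% binomial interval for counting error only.

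daf-9 differed most among the members. It had 531 reads (22.1 CPM) in the library labelled aak(0) and 0 in the one labelled daf-2, so it was at least 428-fold higher against a floor of 3 reads, or at least 181-fold without ribosomal genes in the scaling. The same absence was common: of 3632 genes with at least as many reads as daf-9 in the library labelled aak(0), 441 had 0 reads in the other. daf-1 had 589 and 307 reads (24.5 and 5.28 CPM), a ratio of 4.64 (4.04 to 5.34). daf-3 had 725 and 731 reads (30.2 and 12.6 CPM), a ratio of 2.40 (2.16 to 2.66), which without ribosomal genes became a log2 difference of 0.02. On the log2 scale daf-9 lay above 97.5% of all genes, daf-1 above 51.4% and daf-3 above 42.9%.

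The other members lay closer together. daf-4 was at 30.7 and 24.0 CPM, a ratio of 1.28 (1.17 to 1.40), and its direction turned without ribosomal genes (log2 difference -0.87). daf-7 was at 6.62 and 9.87 CPM, a ratio of 0.670 (0.558 to 0.800), and daf-8 at 6.57 and 7.91, a ratio of 0.831 (0.689 to 0.997). daf-14 was at 26.8 and 30.98 CPM, a ratio of 0.866 (0.790 to 0.948), and daf-5 at 44.6 and 50.8, a ratio of 0.876 (0.816 to 0.940). The ligand, both regulated Smads and the Ski-family partner were thus slightly lower in the library labelled aak(0) by this scaling. Without ribosomal genes the log2 differences of daf-7, daf-8, daf-14 and daf-5 were -1.72, -1.41, -1.42 and -1.42. With argk-1 left out as well they were -0.69, -0.39, -0.35 and -0.33. daf-12 was at 144 and 224 CPM, a ratio of 0.643 (0.619 to 0.667), and din-1 at 152 and 254, a ratio of 0.598 (0.576 to 0.620). daf-12 and din-1 held 60.6% and 77.2% of the members' reads, beside 66.4% to 82.5% in the intestinal HZL-1 libraries. Their log2 differences lay above those of 19.2% and 17.9% of all genes. Neuron markers summed to 576 and 1039 CPM in the libraries labelled aak(0) and daf-2, while their medians, 21.9 and 17.8 CPM, lay in the reverse order. XXX cell markers summed to 10.6 and 19.5 CPM, with 3 and 4 of the 5 at 0 reads. The 19.5 CPM was eak-7 alone, and eak-4 had 190 reads in the library labelled aak(0) and 0 in the other. The part of those cells in the member values was not tested.

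**Figure D3:**
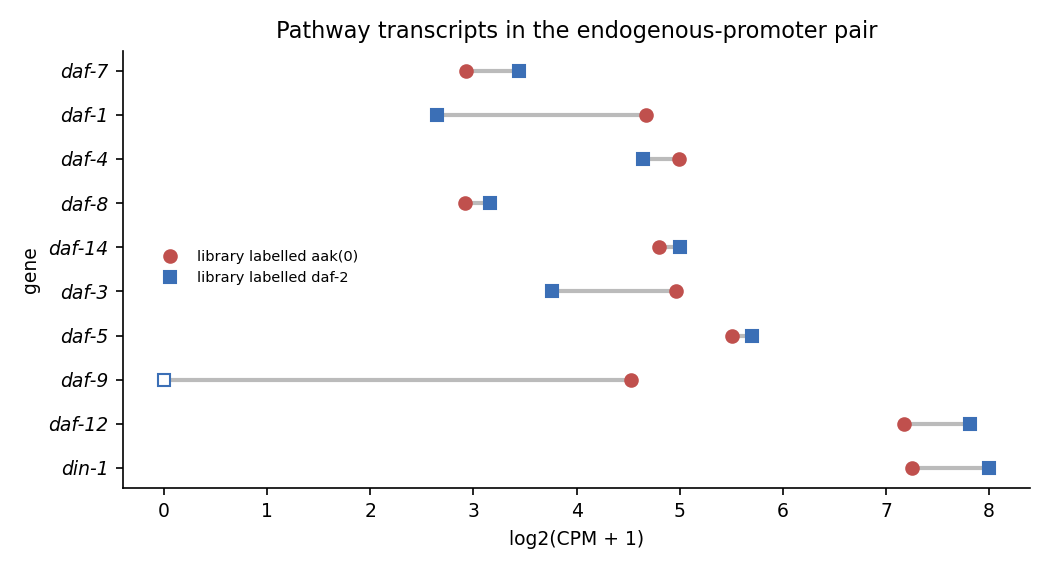
log2(CPM + 1) of the 10 genes in the 2 endogenous-promoter libraries, with circles for the library labelled aak(0), squares for the library labelled daf-2, an open square for 0 reads and lines joining the values of a gene. daf-1, daf-3 and daf-9 lie far to the right in the library labelled aak(0), and daf-12 and din-1 lie to the left of the other library.

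Ratios of reads between partners within a library cancel the library's scaling, and gene length cancels when libraries are compared. din-1 reads over daf-12 reads were 0.775, 1.10 and 0.954 in aak(0) 1 to 3 and 2.39, 0.933 and 0.447 in daf-2 1 to 3. The ratios in the endogenous libraries labelled aak(0) and daf-2 were 1.05 and 1.13. The intestinal daf-2 libraries spread around the aak(0) values, with daf-2 1 highest and daf-2 3 lowest. daf-5 reads over daf-3 reads were 2.10, 1.92 and 1.93 in aak(0), 0.974, 1.72 and 2.04 in those of daf-2, and 1.48 and 4.04 in the endogenous libraries labelled aak(0) and daf-2. The aak(0) libraries lay close together for this pair, although both genes stood high in aak(0) 1. daf-4 over daf-1 was 0.00474 in aak(0) 1, where daf-4 had 1 read, and between 1.14 and 4.30 in the other intestinal libraries where daf-1 had reads. daf-14 over daf-8 ranged from 1.03 to 3.58 in the intestinal libraries where daf-8 had reads, and was 4.08 and 3.92 in the endogenous pair.

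**Figure D4:**
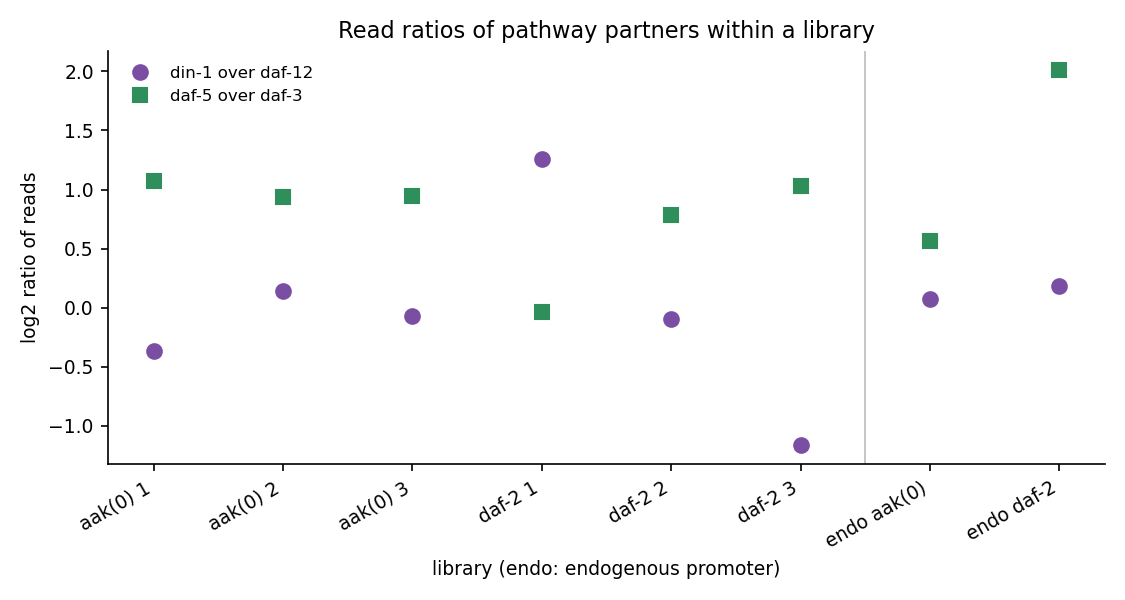
log2 of the ratio of din-1 to daf-12 reads (circles) and of daf-5 to daf-3 reads (squares) within each of the 8 libraries labelled as carrying tagged HZL-1, with a line between the intestinal and the endogenous libraries. The daf-5 over daf-3 ratios lie close together in the 3 intestinal aak(0) libraries, and the din-1 over daf-12 ratios are farthest apart in daf-2 1 and daf-2 3.

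The other genes of these pathways were read from 4 lists, and 0 of their members passed the limma threshold in any of the 3 intestinal comparisons. Of the DBL-1 and Sma branch, the TGF-beta pathway of body size, 9 of 16 genes were tested, with a median of -0.17 in aak(0) minus daf-2. Its most abundant members were sma-9 (11.4 FPKM), a zinc-finger partner of Smads, bra-2 (5.18) and sma-10 (3.55). Of 10 genes of dafachronic acid synthesis and sterol supply 2 were tested, emb-8 (9.53 FPKM), a P450 reductase, and ncr-1 (2.58), a Niemann-Pick sterol transporter, with a median of 0.10. nhr-8, a nuclear receptor, came next at 0.94 FPKM. The Rieske oxygenase gene daf-36 and the dehydrogenase gene dhs-16, which also serve synthesis, were scarce like daf-9, at 1.22 and 0.66 FPKM at most.

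Of 9 DAF-12 related receptors and heterochronic partners, genes that time larval cell fates, 8 were tested, with a median of 0.71 in aak(0) minus daf-2. The most abundant were the kinase gene lit-1 (23.8 FPKM), lin-41 (16.2) and the receptor gene nhr-48 (6.74). lit-1 was at 44.6, 20.7 and 24.1 FPKM in the aak(0) libraries, 5.95, 13.8 and 10.3 in those of daf-2 and 47.0 in the GFP library, without overlap between aak(0) and daf-2. That order, all 3 aak(0) libraries above all 3 of daf-2, held for 10% of the genes tested. The difference of lit-1 was 1.48 (limma adjusted p = 0.717). lin-42, a period homologue, was at 0 to 1.59 FPKM in the aak(0) libraries, 0 to 0.09 in those of daf-2 and 6.31 in the GFP library, with a difference of -2.83 from GFP in daf-2 (limma adjusted p = 0.408). That became an adjusted p of 0.0223 without aak(0) 1, which enters only through the shared spread. The genes tested stayed the same, and 433 of the 9649 passed in that setting.

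Of 17 sensory and cGMP dauer entry genes 9 were tested, with a median of 0.97 in aak(0) minus daf-2. The most abundant were the chaperone gene hsp-90 (250.3 FPKM), which is daf-21, the cGMP-dependent kinase gene egl-4 (25.1) and the co-chaperone gene daf-41 (15.1). egl-4 was at 31.6, 25.6 and 29.2 FPKM in the aak(0) libraries, 9.21, 20.4 and 12.9 in those of daf-2 and 47.0 in the GFP library. The HZL-1 groups of egl-4 did not overlap, with aak(0) above daf-2, as in 10% of the genes tested. Its difference from GFP in daf-2 was -1.73 (limma adjusted p = 0.599). che-2, a gene of sensory cilia, was at 0 FPKM in all 6 HZL-1 libraries and 0.28 in the GFP library, below the filter. Without a filter it passed the limma threshold in both comparisons with GFP, as did 1568 and 1753 of 46904 genes. Its values left no spread of its own, so that call rests on 1 GFP value and cannot show a difference. In order of the 4 lists as given, the medians were -0.42, -0.83, -0.71 and -0.58 in aak(0) minus GFP, beside -0.79 over all genes. In daf-2 minus GFP they were -0.59, -0.93, -0.92 and -1.47, beside -1.28.

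In the endogenous pair 5 of the 10 hormone and sterol genes had reads only in the library labelled aak(0), as daf-9 did, beside 44.7% of all genes. daf-36 was at 27.0 CPM in the library labelled aak(0) and 0 in the one labelled daf-2. dhs-16 (12.4 CPM), hsd-2 (11.03), hsd-3 (11.2) and strm-1 (11.1), a methyltransferase gene acting on hormone precursors, also had 0 reads in the library labelled daf-2. emb-8 had 1234 and 4494 reads in the libraries labelled aak(0) and daf-2 (51.3 and 77.3 CPM). The same absence held for 5 of 15 genes of the DBL-1 and Sma branch, 4 of 16 of the sensory list and 0 of 9 of the DAF-12 related list. Of the hormone and sterol list 8 of 10 genes were at least 2-fold higher in the library labelled aak(0) and 0 lower, beside the 59.2% and 15.1% of all genes. The counts were 7 and 0 of 15 for the DBL-1 and Sma branch, 4 and 0 of 9 for the DAF-12 related list and 8 and 3 of 16 for the sensory list.

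Markers of other tissues were present in all libraries. Intestinal markers summed to 22.9 to 41.9 FPKM in the aak(0) libraries, 28.8 to 51.1 in those of daf-2 and 48.7 in the GFP library, and 1 to 8 of the 11 found were at 0. The GFP library lay within the range of the HZL-1 libraries. Germline markers summed to 60.8 to 205 FPKM in the aak(0) libraries, 18.8 to 169 in those of daf-2 and 309 in the GFP library. Body wall muscle markers summed to 121 to 478, 99.0 to 281 and 230 FPKM, and pharynx markers to 26.6 to 95.1, 25.2 to 57.6 and 40.5 FPKM in the same order. Hypodermis markers summed to 55.2 to 57.4, 28.8 to 79.8 and 57.5 FPKM. aak(0) 1, where daf-3 and daf-5 were highest, also had the highest sums of neuron, muscle and pharynx markers among the 7 intestinal libraries. In it 5 of 12 neuron, 1 of 10 muscle and 4 of 7 pharynx markers were at 0, with medians of 19.3, 12.6 and 0 FPKM. The part of those tissues in the member values was not tested.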

How the data were processed

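Members and gene lists were chosen with earlier results of these data known. Groups came from the labels. The submitters' processing notes name DESeq2 1.30.1, RSEM, STAR 2.7.1a, Trimmomatic 0.35 and the build WBcel235, without roles or settings. FPKM values were deposited by the authors for the 7 intestinal libraries. A second deposited table held a normalized signal per gene for the 6 intestinal HZL-1 libraries, reads divided by 1 factor per library. It also held the authors' log2 fold changes, p-values and standard errors with a score per gene. For the endogenous pair the authors deposited raw counts. Whether counting used strand is not given, so reads of overlapping genes cannot be separated. Entries naming no gene took 62.1% (library labelled aak(0)) and 29.6% (daf-2) of those reads and stayed out of library sizes.

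Whole reads were recovered from the signal: 100% of values were whole multiples of the smallest value of their library, within 0.01. limma 3.58.1 (R 4.3.3) was fitted with a variance trend to log2(FPKM + 1) of all 7 intestinal libraries, 1 mean per group. A mean of 1 FPKM or more was required (9649 genes, among them 9 members), and the threshold was a Benjamini-Hochberg adjusted p of 0.05 over all of them. This scale understates the change of low genes. edgeR 4.0.16 and DESeq2 1.42.0 were run on the recovered reads. The fits were tested on simulated data. For limma the simulated shifts exceeded every member difference of the main fit, so that check does not cover differences of such size. A floor of 3 reads was 0.172 to 0.419 CPM in the intestinal HZL-1 libraries and 0.125 and 0.0516 CPM in the endogenous pair. Floors and intervals cover counting error only, because PCR copies among the reads were not marked. Library numbers were not treated as pairs in the main fit. The deviations of same-numbered libraries from their group means correlated at -0.112, -0.0458 and -0.101 across genes, which cannot exclude a shared preparation.

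Named genes were all members, hzl-1, aak-1, aak-2 and daf-2 as label checks, and of each pathway list the genes past the threshold and otherwise the 3 with the highest mean FPKM. For the 2 most abundant members, the 3 genes nearest in root mean square difference of log2(FPKM + 1) were named. argk-1, daf-36, dhs-16, hsd-2, hsd-3, strm-1, lin-42, che-2, eak-4 and eak-7 were added after their values were seen. Cell type markers were given by counts and sums. Alternatives were other pseudocounts, filters, scalings, tools and left-out libraries. No sequence was used.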

Additional observations from a re-analysis of the deposited data

Results flagged for a closer look

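For 3 genes the endogenous pair differed in the direction opposite to every pairing of an intestinal aak(0) with an intestinal daf-2 library by FPKM, and this difference between the sets was not tested. din-1 was lower in the endogenous library labelled aak(0), by -0.74 on the log2(CPM + 1) scale. aak-2 was higher there, by 5.80. daf-2 was lower there, by -0.75. By CPM the intestinal groups of all 3 genes overlapped.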

How the results depend on the processing

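None of 447 member differences recomputed under the alternatives passed the threshold (lowest adjusted p 0.0599), and 413 kept their direction. The 34 turned values follow, in log2 units, and their cause was not tested. In aak(0) minus daf-2, leaving out the 3 libraries with the fewest genes, an alternative chosen after seeing the data, gave daf-7 0.027, daf-4 0.032, daf-8 0.37 and daf-12 -0.10. Leaving out both HZL-1 libraries numbered 1, also chosen after seeing the data, gave daf-3 -0.39, daf-5 -0.014 and daf-12 -0.54. Quantile normalization gave daf-1 -0.31, daf-3 -0.69 and daf-5 -0.047. It also put 1 of the 9 members under an unadjusted limma p of 0.05, against 388 of the 9649 genes. On the reads, edgeR gave daf-12 -0.49 and din-1 -0.20, and DESeq2 -0.54 and -0.27. With each library left out in turn, daf-1 ranged from -0.16 to 0.83, daf-4 from -1.16 to 0.36, daf-3 from -0.23 to 0.76 and daf-12 from -0.31 to 1.06.

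In aak(0) minus GFP, quantile normalization gave daf-1 0.044 and daf-8 0.038, TPM rescaling gave daf-14 -0.029, and both added alternatives gave daf-14 -0.16, which ranged from -0.16 to 0.43 with each library left out. In daf-2 minus GFP, quantile normalization gave daf-7 1.32, daf-1 0.35, daf-8 0.96 and daf-14 0.41. With each library left out, daf-7 ranged from -0.41 to 0.18 and daf-8 from -0.41 to 0.27. An unadjusted limma p under 0.05 occurred among the members, as across all genes, in both comparisons with GFP when library number was a block. The same held without both HZL-1 libraries numbered 1. With the library number as a block, 0 members and 0 genes were called in each comparison, and daf-14 became -0.59 and daf-5 0.0052 in aak(0) minus GFP. At an unadjusted p under 0.05, leaving out the 3 libraries with the fewest genes marked 4 of the 9 members in each comparison with GFP, against 15.6% of all genes for aak(0) and 48.7% for daf-2.

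Over all genes, aak(0) against daf-2 gave 1 call, 0 to 545 with each library left out (545 without aak(0) 1), 27 without both libraries numbered 1, 2 with edgeR and 5 with DESeq2. It gave 0 to 2 under other settings. The comparisons with GFP gave 103 calls each, 1568 and 1753 without a filter, 157 and 168 with TPM rescaling, 108 to 158 and 106 to 433 with each library left out (433 without aak(0) 1). They gave 0 with a minimum of 5 FPKM, quantile normalization, no variance trend or the 3 libraries left out. In the endogenous pair, scaling without ribosomal genes gave 1 member at least 2-fold higher and 6 lower, against 3 and 0, where all genes gave 51.6% and 29.9% against 59.2% and 15.1%. daf-9 could be tested only without a filter or with DESeq2. daf-9, daf-7, daf-8, daf-1 and daf-4 each had 0 or 1 read in at least 1 library, and the part of depth in this was not tested.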

Other observations

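The genes nearest to din-1 in level over the 7 intestinal libraries, among 11165 searched, were gpb-1 (root mean square difference of 0.157 in log2(FPKM + 1)), hif-1 (0.364) and ril-2 (0.372). gpb-1 encodes a G protein beta subunit, and it was at 46.5, 41.7 and 48.3 FPKM in the aak(0) libraries, 14.8, 42.7 and 47.9 in those of daf-2 and 86.7 in the GFP library. hif-1 encodes the hypoxia-inducible factor. The genes nearest to daf-12 were casy-1 (0.332), a calsyntenin gene, kin-2 (0.348), the gene of a regulatory subunit of protein kinase A, and egl-30 (0.370), a G protein alpha subunit gene. casy-1 was at 32.4, 23.5 and 20.5 FPKM in the aak(0) libraries, 8.79, 25.1 and 66.0 in those of daf-2 and 35.4 in the GFP library, with daf-2 1 lowest and daf-2 3 highest as for daf-12.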
